A study of Mus musculus with 9 samples.

Results

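The 9 genes described here encode the enzymes that make serine and pass its carbon to folate: Phgdh, Psat1, Psph, Shmt1, Shmt2, Mthfd1, Mthfd1l, Mthfd2 and Aldh1l2. They were found by symbol among the 56691 genes of a table of RNA-seq counts and FPKM values (fragments per unit of exonic length, scaled to the counted reads of the library), and each symbol matched 1 gene. The RNA came from RAW264.7 cells, a mouse macrophage line that turns into osteoclast-like cells under RANKL, the cytokine that drives osteoclast formation. There were 3 groups of 3 libraries: control cells without treatment, cells given RANKL, and cells given RANKL with uridine, a pyrimidine nucleoside abbreviated UD (RANKL + UD). All cells came from the same line with no gene deletion or transgene named, and RNA was collected after 3 days. The labels call the 3 libraries of a group biological replicates without saying how the cultures were kept apart, and they give no dose. The comparison of RANKL with control asks what changes with osteoclast induction, and the comparison of RANKL + UD with RANKL asks what uridine changes in induced cells.

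Serine synthesis branches off glycolysis. PHGDH oxidises a glycolytic intermediate, PSAT1 adds an amino group taken from glutamate, and PSPH removes the phosphate to leave serine. The SHMT enzymes then split serine into glycine and a one-carbon unit carried on tetrahydrofolate, SHMT1 mainly in the cytosol and SHMT2 in mitochondria. In mitochondria, MTHFD2 oxidises the carried unit, MTHFD1L releases it as formate for export, and ALDH1L2 can instead burn it to CO2 with a gain of NADPH. In the cytosol, MTHFD1 loads formate back onto folate for the synthesis of purines, thymidylate and methionine. Several genes of the pathway are known targets of ATF4, the transcription factor of the amino acid and stress response, and macrophage-lineage precursors need serine in the medium to become osteoclasts in culture.

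Shmt1 and Shmt2 are a cytosolic and mitochondrial pair of which the first rose with uridine and the second did not pass the test, and Mthfd1l is a mitochondrial gene that fell where cytosolic Mthfd1 rose. The 150 bases before the start sites of Shmt1, Shmt2 and Mthfd1l are shown, with each CpG dinucleotide in capitals. These windows lie outside annotated exons. Those of Mthfd1 and Mthfd2 overlap an exon and are not shown, and no promoter was listed for Aldh1l2. Shmt1 is thus the only cytosolic gene shown, and the windows do not stand for the 2 arms. The sequences are from RefSeq on GRCm38.p6, read 5′ to 3′ on the strand of the gene.
Shmt1, chr11:60811266-60811415, minus strand: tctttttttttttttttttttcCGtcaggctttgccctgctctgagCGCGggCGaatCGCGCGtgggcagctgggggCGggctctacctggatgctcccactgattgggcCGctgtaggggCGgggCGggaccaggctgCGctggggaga
Shmt2, chr10:127522445-127522594, minus strand: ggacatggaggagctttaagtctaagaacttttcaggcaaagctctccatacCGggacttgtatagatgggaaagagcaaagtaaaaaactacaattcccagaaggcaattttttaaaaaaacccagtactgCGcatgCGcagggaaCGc
Mthfd1l, chr10:3972925-3973074, plus strand: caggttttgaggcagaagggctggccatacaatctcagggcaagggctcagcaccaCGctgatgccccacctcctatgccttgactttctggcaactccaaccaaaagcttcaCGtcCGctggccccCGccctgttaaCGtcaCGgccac
The window of Shmt1 held 12 CpG, that of Shmt2 held 4 and that of Mthfd1l held 6. Over the 250 bases before the start, Psph had 23 CpG, the Psat1 starts had 24 and 16, Mthfd1 had 15, Shmt1 had 13, and Phgdh, Mthfd2, Mthfd1l and Shmt2 had 7 each, against a median of 6 and quartiles of 2 and 16 over 32851 promoters.

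A promoter was listed for 8 of the 9 genes, with 2 starts for Psat1. In the 250 bases before the start, the letters TGATGNAA, the shared core of C/EBP-ATF response elements, occurred on either strand in 0 of these 9 promoters and in 3.45% of all 32851. The E-box CACGTG, the element that MYC and its relatives read, was also in 0 of the 9, and in 6.02% of all promoters. Among the other listed ATF4 targets, 6 of the 16 genes with a promoter held TGATGNAA: Asns, Chac1, Fgf21, Nupr1, Slc7a11 and Vldlr. The patterns can overlap by the TG or CA at their ends, and a missing match says only that these letters are not in this window.

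Library totals were 15951800 to 19746862 counts. Counts of any pair of replicate libraries were farther apart than counting error allows (chi-square over its degrees of freedom 2.90 to 8.89), so each library entered as its own sample. Every member reached an FPKM of 1 in all 9 libraries, and the members' counts lay between 313 and 9539 per library. All 9 were therefore tested, among 11995 genes that reached an FPKM of 1 in 3 or more libraries. A marker was counted in a group when its highest library there reached an FPKM of 1. Of 9 macrophage markers, 9 did so in control and 7 in the other groups, where Cd86 and Mrc1 were lower. In control Mrc1 ran from 0.76 to 1.00, with a mean of 0.85. Of 8 osteoclast markers, 5 reached it in control and 7 in RANKL and in RANKL + UD, Calcr being under 1 in every library. No marker of fibroblasts, lymphocytes or epithelium reached an FPKM of 1. The osteoclast markers summed to 46.7 to 49.9 FPKM in control, 2639 to 2843 in RANKL and 1665 to 1702 in RANKL + UD, and the macrophage markers to 9396 to 9985, 2527 to 2771 and 2204 to 2337. Lyz2 made up most of the macrophage sum, at means of 8000 FPKM in control, 1431 in RANKL and 1285 in RANKL + UD. Cd68 went the other way with RANKL, at means of 549, 782 and 643, while every other macrophage marker had a lower mean in RANKL than in control. Adgre1 was higher in RANKL + UD (mean 12.6) than in RANKL (10.1). The marker values move with the groups compared below, and their part in the members' changes was not tested. In RNA from whole cultures, fewer cells of a type and less RNA per cell cannot be told apart.

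With uridine, 5 of the 9 enzyme mRNAs fell against RANKL alone and 2 rose, by the quasi-likelihood test of edgeR, adjusted after Benjamini and Hochberg over all 11995 genes. The 5 that fell were Phgdh and Psph of serine synthesis and Mthfd2, Mthfd1l and Aldh1l2 of the mitochondrial folate arm. The 2 that rose were Shmt1 and Mthfd1, the cytosolic enzymes. Psat1 and Shmt2 did not pass the test. In the same comparison 20.2% of all tested genes were lower and 18.6% higher, and the median log2 fold change was −0.36 for the 9 members and 0.0050 for all genes. With a fold change over 1.5 also required, Mthfd2 and Aldh1l2 were lower (5.49% of all genes) and Shmt1 was higher (4.38% of all genes).

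RANKL itself had raised 4 of the 9 against control and lowered 4, where 27.3% of all tested genes were higher and 30.2% lower. Psph, Mthfd1l, Mthfd2 and Aldh1l2 rose, Phgdh, Psat1, Shmt1 and Shmt2 fell, and Mthfd1 did not pass. None of these changes was over 1.5-fold, a size that 10.8% of all genes passed upward and 14.1% downward. Against control, RANKL + UD had 6 members lower and 2 higher, beside 27.3% and 26.7% of all genes. Phgdh and Aldh1l2 were lower by more than 1.5-fold (12.8% of all genes), and no member was higher by that much (9.3% of all genes). The medians of the 9 log2 fold changes were 0.042 for RANKL against control and −0.25 for RANKL + UD against control, beside −0.027 and −0.0021 for all genes. The comparisons share libraries with each other, so their values are set side by side and are not independent.

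**Figure D1:**
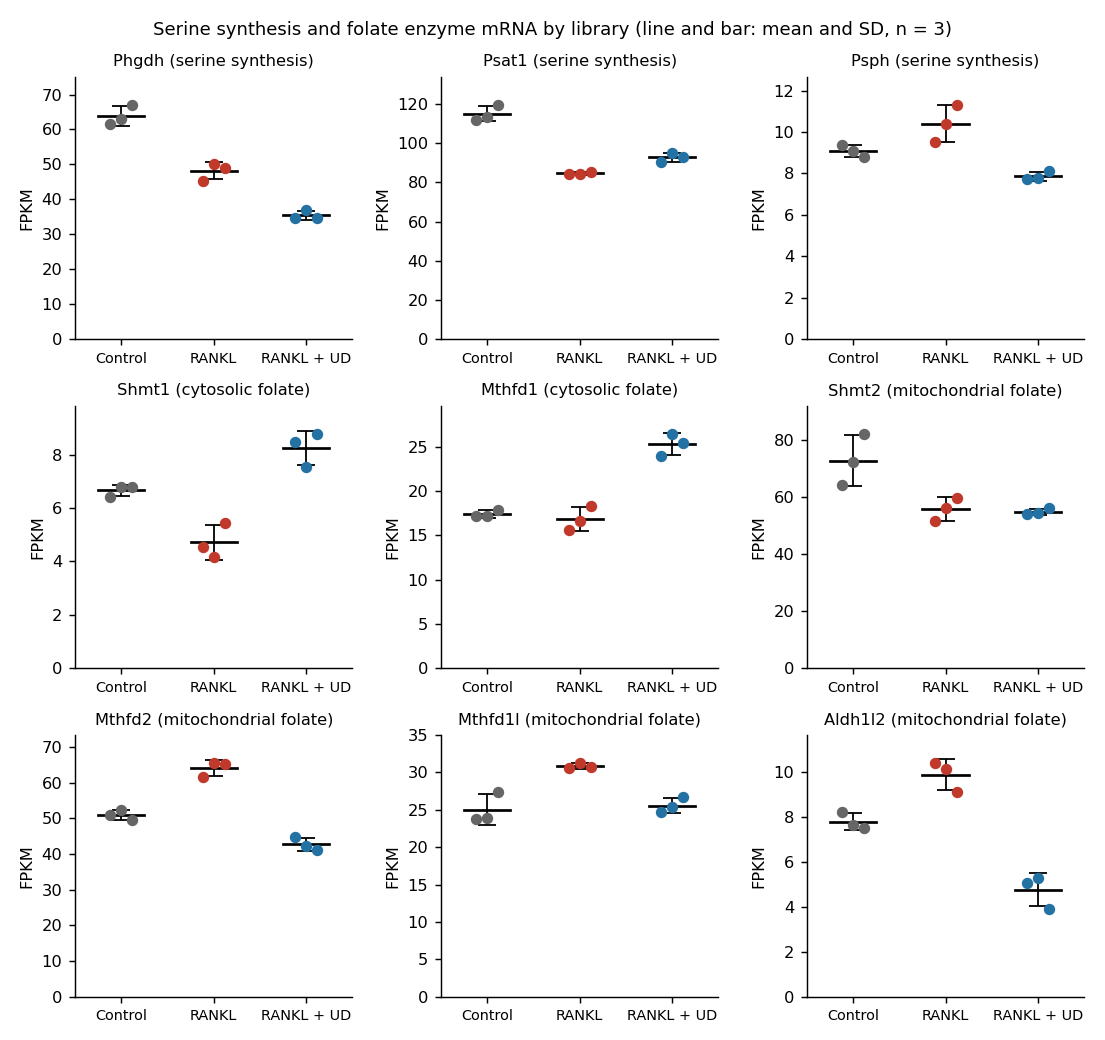
FPKM of each enzyme gene (vertical axes, from 0) in the 3 control, 3 RANKL and 3 RANKL + UD libraries; points are libraries, and the line and bar are the mean and SD. Phgdh steps down from 63.8 to 48.2 to 35.4, while Mthfd2 and Aldh1l2 are highest in RANKL and lowest in RANKL + UD.

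Phgdh, the gene of the committed first step (ENSMUSG00000053398), had 61.6, 62.9 and 67.0 FPKM in control, 45.4, 50.0 and 49.1 in RANKL, and 34.8, 36.8 and 34.7 in RANKL + UD. The 3 groups did not overlap, and each treatment group lay below the one before it. Phgdh mRNA was lower in RANKL than in control by a log2 fold change of −0.32 (SE 0.053, adjusted p = 2.77e-05) and lower again with uridine, at −0.53 (SE 0.054, adjusted p = 1.49e-07). Against control, the RANKL + UD libraries stood at −0.85 (SE 0.054, adjusted p = 2.05e-11), a 1.80-fold decrease and the deepest of any member in that comparison. Of all tested genes, 9.70% had a lower log2 fold change than this.

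Psat1, the aminotransferase gene (ENSMUSG00000024640), was the most abundant member in every group. It had 112, 114 and 119 FPKM in control, 84.2, 84.4 and 85.3 in RANKL, and 90.5, 95.1 and 92.9 in RANKL + UD. Control lay above both other groups. Psat1 fell with RANKL (log2 fold change −0.36, SE 0.044, adjusted p = 6.38e-07), and RANKL + UD was also below control (−0.31, SE 0.044, adjusted p = 4.78e-06). Between RANKL + UD and RANKL the FPKM values did not overlap, yet the log2 fold change after TMM scaling was 0.047 (95% interval −0.046 to 0.14) and did not pass (adjusted p = 0.439). With libraries scaled by total counts only, as FPKM values are, it was 0.13 and passed (adjusted p = 0.0214), so this call rests on the scaling.

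Psph, the phosphatase gene of the last step (ENSMUSG00000029446), had 9.38, 9.08 and 8.80 FPKM in control, 9.51, 10.4 and 11.3 in RANKL, and 7.74, 7.76 and 8.12 in RANKL + UD. RANKL lay above control and RANKL + UD below both. The mRNA rose with RANKL by 0.28 (SE 0.076, adjusted p = 0.00336) and was lower with uridine than with RANKL alone by a log2 fold change of −0.49 (SE 0.077, adjusted p = 3.42e-05). Against control the RANKL + UD value was −0.21 (SE 0.078, adjusted p = 0.0304), a call that was lost without the filter on low values (adjusted p = 0.0962) and without control replicate 1 (0.0953), control replicate 2 (0.0593), RANKL + UD replicate 1 (0.0800) or RANKL + UD replicate 2 (0.0851). Psph shares 452 bases of its span with Cct6a, a chaperonin subunit gene on the other strand with a mean of 137 FPKM. Cct6a had log2 fold changes of 0.46 for RANKL against control and 0.13 for RANKL + UD against RANKL. The libraries were strand-specific, but whether reads were counted by strand is not given in the sources used here. Reads from the shared stretch therefore cannot be told apart.

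The 3 steps of serine synthesis thus did not move as a block. The Psat1 to Phgdh ratio of FPKM was 1.82, 1.81 and 1.78 in control, 1.86, 1.69 and 1.74 in RANKL, and 2.60, 2.58 and 2.68 in RANKL + UD, where all 3 libraries lay above the other 6. The Phgdh to Psph ratio was 7.03 ± 0.529 in control (SD, n = 3), 4.64 ± 0.259 in RANKL and 4.50 ± 0.240 in RANKL + UD, with the last pair overlapping. A ratio within a library does not depend on how libraries are scaled to each other.

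Shmt1, the cytosolic serine hydroxymethyltransferase gene (ENSMUSG00000020534), was the least abundant member in control and RANKL. Its FPKM was 6.42, 6.79 and 6.78 in control, 4.53, 4.17 and 5.45 in RANKL, and 8.46, 7.53 and 8.77 in RANKL + UD. The groups did not overlap, with RANKL lowest and RANKL + UD highest. The log2 fold change was −0.41 for RANKL against control (SE 0.10, adjusted p = 0.00167) and 0.72 for RANKL + UD against RANKL (SE 0.10, adjusted p = 8.12e-06), a 1.65-fold increase that 95.7% of tested genes fell short of. Against control, RANKL + UD stood at 0.31 (SE 0.099, adjusted p = 0.0113), which became 0.27 (adjusted p = 0.0566) without RANKL + UD replicate 3. Shmt1 shares 184 bases with Smcr8 on the other strand, at a mean of 20.1 FPKM, and Smcr8 was higher with RANKL than in control by 0.20 (SE 0.057, adjusted p = 0.00594) and higher with uridine than with RANKL alone by 0.44 (SE 0.056, adjusted p = 2.66e-06). As for Psph, reads from the stretch shared with Smcr8 cannot be told apart.

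Shmt2, the mitochondrial counterpart (ENSMUSG00000025403), had 64.3, 72.3 and 82.3 FPKM in control, 51.6, 56.2 and 59.9 in RANKL, and 54.1, 54.5 and 56.1 in RANKL + UD. Control lay above the other groups, which overlapped. Shmt2 fell with RANKL by 0.30 on the log2 scale (SE 0.069, adjusted p = 0.000946) and was below control with RANKL + UD (−0.41, SE 0.069, adjusted p = 3.70e-05). The difference between RANKL + UD and RANKL was −0.11 (95% interval −0.26 to 0.032, adjusted p = 0.216).

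The ratio of Shmt2 to Shmt1 was 10.0, 10.6 and 12.1 in control and 11.4, 13.5 and 11.0 in RANKL, which overlapped. It was 6.40, 7.24 and 6.40 in RANKL + UD, below all 6 other libraries. Shmt2 mRNA therefore stayed the more abundant of the pair per exonic length in every library.

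Mthfd1, the cytosolic enzyme that loads formate onto folate (ENSMUSG00000021048), had 17.2, 17.2 and 17.9 FPKM in control, 15.6, 16.7 and 18.3 in RANKL, and 24.0, 26.5 and 25.4 in RANKL + UD. Control and RANKL overlapped, and the 3 RANKL + UD libraries lay above all others. Uridine raised Mthfd1 against RANKL by a log2 fold change of 0.50 (SE 0.061, adjusted p = 1.44e-06), and against control RANKL + UD stood at 0.54 (SE 0.061, adjusted p = 1.66e-07). The difference between RANKL and control was 0.042 (95% interval −0.087 to 0.17, adjusted p = 0.584), and its sign turned with total-count scaling. Among all tested genes, 91.3% had a lower log2 fold change with uridine than Mthfd1.

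Mthfd2, the mitochondrial dehydrogenase gene often high in dividing and stressed cells (ENSMUSG00000005667), had 51.0, 52.4 and 49.6 FPKM in control, 61.6, 65.5 and 65.2 in RANKL, and 44.8, 42.3 and 41.2 in RANKL + UD. The 3 groups were separate, with RANKL highest and RANKL + UD lowest. It rose with RANKL by 0.42 (SE 0.050, adjusted p = 3.18e-07) and was lower with uridine than with RANKL alone at −0.67 (SE 0.050, adjusted p = 1.62e-09), a 1.59-fold decrease. RANKL + UD was also below control (−0.25, SE 0.050, adjusted p = 0.000213).

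Mthfd1l, the gene of the enzyme that releases formate in mitochondria (ENSMUSG00000040675), had 23.8, 23.9 and 27.4 FPKM in control, 30.6, 31.3 and 30.8 in RANKL, and 24.7, 25.4 and 26.7 in RANKL + UD. RANKL lay above both other groups, which overlapped. The log2 fold change was 0.39 for RANKL against control (SE 0.057, adjusted p = 5.36e-06) and −0.36 for RANKL + UD against RANKL (SE 0.057, adjusted p = 3.97e-05). RANKL + UD and control differed by 0.033 (95% interval −0.087 to 0.15, adjusted p = 0.655), with a sign that turned without control replicate 2.

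Aldh1l2, the mitochondrial formyl-tetrahydrofolate dehydrogenase gene (ENSMUSG00000020256), had 8.19, 7.63 and 7.51 FPKM in control, 10.4, 10.1 and 9.08 in RANKL, and 5.07, 5.26 and 3.92 in RANKL + UD. No groups overlapped, and RANKL + UD was the lowest. Aldh1l2 rose with RANKL by 0.43 (SE 0.085, adjusted p = 0.000189). With uridine it was 2.20-fold lower than with RANKL alone (log2 fold change −1.14, SE 0.088, adjusted p = 2.54e-09), the largest change of any member, and 1.90% of tested genes had a lower value. Against control it stood at −0.71 (SE 0.089, adjusted p = 7.87e-07). Nopchap1 on the other strand shares 1056 bases with Aldh1l2. It has a long annotated exonic length, so its mean was 0.950 FPKM although it held up to 2646 counts in a library, against 508 to 1535 for Aldh1l2. Nopchap1 rose with RANKL by 0.31 (SE 0.052, adjusted p = 3.31e-05), and its difference between RANKL + UD and RANKL was 0.041 (adjusted p = 0.578). Reads from the shared stretch cannot be told apart here either.

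**Figure D2:**
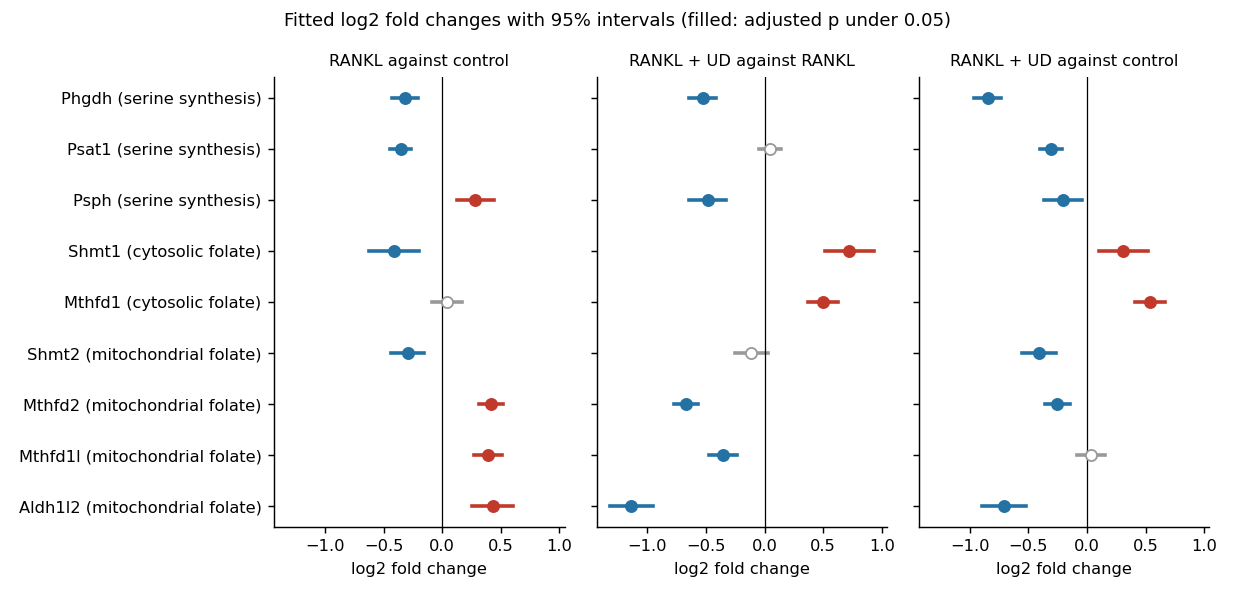
Log2 fold change (horizontal axes) of each enzyme gene in the 3 comparisons, with 95% intervals as lines; filled points have an adjusted p under 0.05 and open points do not. In the middle panel the cytosolic genes Shmt1 (0.72) and Mthfd1 (0.50) lie to the right of 0, and Mthfd2 (−0.67), Mthfd1l (−0.36) and Aldh1l2 (−1.14) lie to the left.

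Ratios between single mitochondrial and cytosolic mRNAs can be read within each library. These pairs do not stand for the whole arms. Mitochondrial Shmt2 did not pass with uridine against RANKL, and cytosolic Aldh1l1, described below, was lower in RANKL + UD than in RANKL. The Mthfd2 to Mthfd1 ratio was 2.96, 3.06 and 2.78 in control, 3.94, 3.93 and 3.56 in RANKL, and 1.87, 1.60 and 1.62 in RANKL + UD. Its groups did not overlap, with RANKL highest and RANKL + UD lowest. The Mthfd1l to Mthfd1 ratio took the same order, at 1.44 ± 0.0858 in control (SD, n = 3), 1.84 ± 0.142 in RANKL and 1.01 ± 0.0462 in RANKL + UD. In RANKL + UD the Mthfd1l and Mthfd1 mRNAs were thus about equal per exonic length. Both ratios are divided by Mthfd1, which rose with uridine, so they are not separate readings. Within mitochondria, the Mthfd2 to Aldh1l2 ratio was 6.57 ± 0.327 in control and 6.54 ± 0.626 in RANKL, which overlapped, and 9.12 ± 1.26 in RANKL + UD, above both. These ratios are given without a test. With 3 libraries a side, the smallest p of an exact two-sided permutation test would be 0.1.

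**Figure D3:**
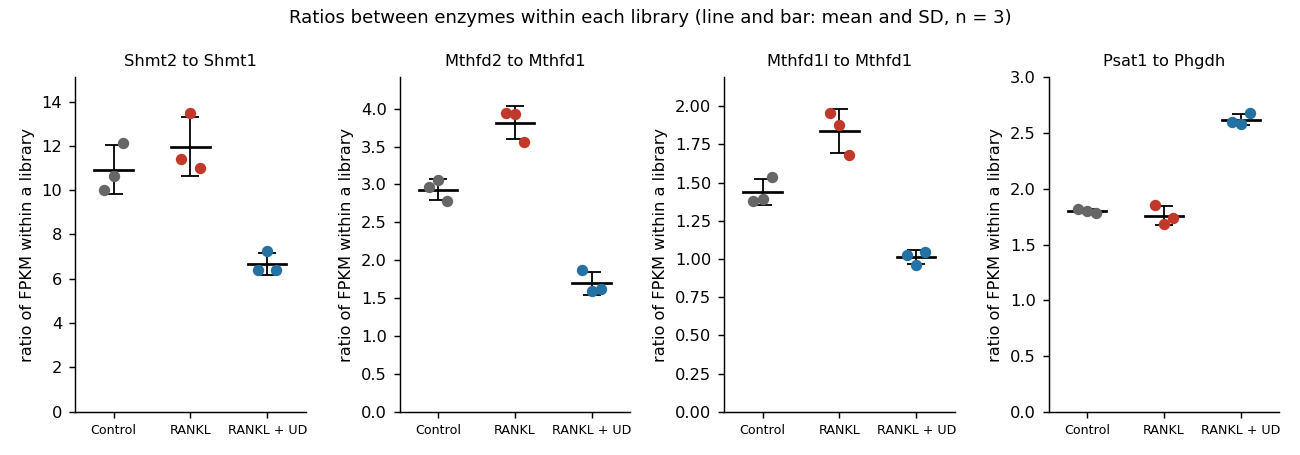
Ratio of FPKM between enzyme genes within each library (vertical axes, from 0) for Shmt2 to Shmt1, Mthfd2 to Mthfd1, Mthfd1l to Mthfd1 and Psat1 to Phgdh; points are libraries, and the line and bar are the mean and SD of 3. The first 3 ratios are lowest in RANKL + UD, at means of 6.68, 1.69 and 1.01, and the last is highest there, at 2.62.

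The order of levels also shifted. In control it ran, by mean FPKM, Psat1, Shmt2, Phgdh, Mthfd2, Mthfd1l, Mthfd1, Psph, Aldh1l2 and Shmt1, and of these neighbours only Shmt2 and Phgdh overlapped between libraries. In RANKL, Mthfd2 (64.1 ± 2.18, SD, n = 3) moved up to the second place, and Psph and Aldh1l2 overlapped. In RANKL + UD, Shmt2 (54.9 ± 1.06) was again second, Aldh1l2 (4.75 ± 0.725) was last, and Mthfd1l with Mthfd1 and Shmt1 with Psph overlapped.

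The members' profiles over the 9 libraries were also compared as log2 values scaled by TMM and centred on each gene's mean, by the root mean square difference. Among members, Psph lay 0.103 from Mthfd2 and Psat1 0.103 from Shmt2, and Shmt1 and Aldh1l2 were the farthest apart at 0.793. Against all tested genes, the nearest to Mthfd2 was Nars (0.048), a gene of asparaginyl-tRNA synthesis, and to Mthfd1 it was Zwint (0.056), a kinetochore gene. Shmt1 was nearest to Rad54l (0.091), a DNA repair gene, and Aldh1l2 to H2-Eb1 (0.087), an MHC class II gene. The nearest to Phgdh was Shisa5 (0.033), to Psat1 Klhl5 (0.031), to Psph Rpl12 (0.056), to Shmt2 Ctsz (0.036) and to Mthfd1l Scpep1 (0.035). Each is the closest of 11995 tested genes and no background distance was computed, so a shared function is not read from it.

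Genes that bring folate and serine into cells and mitochondria were read as a list of 11, of which 8 were tested. With uridine against RANKL, 1 rose and 4 fell, with a median log2 fold change of −0.14, and under total-count scaling 3 rose and 3 fell. Slc1a4, a neutral amino acid carrier that takes serine, was at −1.59 (SE 0.11, adjusted p = 8.08e-10), with 6.57 ± 0.641 FPKM in RANKL (SD, n = 3) and 2.31 ± 0.201 in RANKL + UD. The glycine carrier gene Slc6a9 was at −0.91 (adjusted p = 3.44e-05), and Sfxn3, of the sideroflexin family of mitochondrial serine carriers, at −0.51 (adjusted p = 2.92e-05). With RANKL against control, 2 of the 8 rose and 2 fell (median 0.024), and with RANKL + UD against control 2 rose and 4 fell (median −0.29). Counts of this list and those below stand beside the shares of all tested genes that rose and fell. These were 18.6% and 20.2% for RANKL + UD against RANKL and 27.3% and 30.2% for RANKL against control. For RANKL + UD against control they were 26.7% and 27.3%.

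Of 7 genes of glycine cleavage and serine breakdown, 5 were tested and 1 rose with uridine against RANKL, with a median of 0.036. It was Amt, the aminomethyltransferase of the glycine cleavage system, at 1.00 (SE 0.32, adjusted p = 0.0165). Its level was 1.34 to 1.63 FPKM in control, 0.430 ± 0.195 in RANKL and 0.917 ± 0.131 in RANKL + UD (SD, n = 3). Amt passed the filter through control, where it was highest, so the filter favoured a decrease against control and only the levels are given. Against control, 3 of the 5 rose and 2 fell both with RANKL (median 0.26) and with RANKL + UD (median 0.30). Amt is among the 2, and the 3 include a gene under 1 FPKM in every control library, so the filter bears on these counts.

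Of 9 genes that store, reduce or interconvert folates, 7 were tested, and with uridine against RANKL 2 rose and 2 fell (median 0.065). Aldh1l1, the cytosolic counterpart of Aldh1l2, had 1.57 ± 0.180 FPKM in control, 1.32 ± 0.165 in RANKL and 0.860 ± 0.115 in RANKL + UD (SD, n = 3). It was under 1 FPKM in every RANKL + UD library and passed the filter through the other groups. The filter therefore favoured a decrease in RANKL + UD, and only the levels are given. Aldh1l1 is among the genes counted as lower in RANKL + UD in both comparisons, so the filter bears on these counts. With RANKL against control, 0 rose and 1 fell (median −0.091), and with RANKL + UD against control 2 rose and 3 fell (median 0.034).

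Among 11 genes that use one-carbon units or belong to the methionine cycle and its exit to cysteine, 9 were tested, and with uridine against RANKL 6 rose and 2 fell (median 0.34). Tyms, which makes thymidylate from a folate-borne carbon, rose by 0.73 (SE 0.084, adjusted p = 6.75e-07), from 3.40 ± 0.130 to 5.97 ± 0.386 FPKM (SD, n = 3). Mat2a, which makes S-adenosylmethionine, rose by 0.57 (adjusted p = 3.20e-09). Cth, which makes cysteine from cystathionine, was at −1.82 (SE 0.13, adjusted p = 9.39e-10) after 2.03 for RANKL against control (adjusted p = 2.46e-11). With RANKL against control 4 of the 9 rose and 1 fell (median 0.11), or 1 and 1 under total-count scaling, and with RANKL + UD against control 5 rose and 0 fell (median 0.32).

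ATF4 and its other known targets were read as a list of 18, of which 16 were tested. With uridine against RANKL, 0 rose and all 16 tested fell under each of the scalings tried, with a median of −0.92 with TMM and −0.84 with total counts. Trib3, a pseudokinase gene, was at −2.81 (adjusted p = 1.12e-13), Chac1, which breaks down glutathione, at −2.37 (adjusted p = 4.33e-09), and Ddit3, which encodes CHOP, at −2.18 (adjusted p = 8.90e-13). Atf4 itself was at −0.57 (SE 0.047, adjusted p = 6.04e-09), with 114 ± 3.87 FPKM in control, 145 ± 4.53 in RANKL and 104 ± 3.46 in RANKL + UD (SD, n = 3). With RANKL against control, 12 of the 16 rose and 2 fell (median 0.42), Atf4 by 0.43 and Ddit3 by 0.91. With RANKL + UD against control, 1 rose and 14 fell (median −0.60). This list was chosen with such a decrease in these data already known, so its direction is no independent evidence.

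Myc, whose protein also reads promoters of this pathway, was at 0.767 ± 0.0551 FPKM in control, 36.3 ± 1.14 in RANKL and 14.0 ± 0.797 in RANKL + UD (SD, n = 3). The log2 fold change was 5.65 for RANKL against control and −1.46 for RANKL + UD against RANKL (adjusted p = 1.59e-12). Myc was under 1 FPKM in every control library and passed the filter through the other groups, so the filter favoured an increase against control. The gene of its dimerization partner was also tested and did not pass in any of the 3 comparisons, so 1 of the 2 genes moved.

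The 15 proliferation genes all rose with uridine against RANKL (median 0.66) after all 15 had fallen with RANKL against control (median −0.69). Their summed FPKM was 638 to 669 in control, 404 to 414 in RANKL and 640 to 661 in RANKL + UD. Rrm2, a subunit of ribonucleotide reductase, rose by 0.97 (adjusted p = 4.09e-10), Cdk1, the mitotic kinase gene, by 0.80 (adjusted p = 2.45e-09), and Tk1, thymidine kinase, by 0.75 (adjusted p = 2.55e-08). Mki67 had −1.03 for RANKL against control and 0.71 for RANKL + UD against RANKL. Against control, 4 of the 15 were higher in RANKL + UD and 4 lower (median 0.084), near the shares of all tested genes (26.7% and 27.3%). The part of cell division in the members' changes was not tested.

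The glycolytic genes upstream of the branch to serine were read as a list of 12, all tested. With RANKL against control 10 rose and 0 fell (median 0.70), and with uridine against RANKL 0 rose and 10 fell (median −0.36), or 8 under total-count scaling. The hexokinase genes Hk3 and Hk2 were at −1.06 (adjusted p = 1.14e-11) and −0.51 (adjusted p = 8.35e-08), and the phosphofructokinase gene Pfkp at −0.56 (adjusted p = 2.23e-09). With RANKL + UD against control, 7 rose and 2 fell (median 0.21). Phgdh, the first gene of the branch, fell in both steps.

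**Figure D4:**
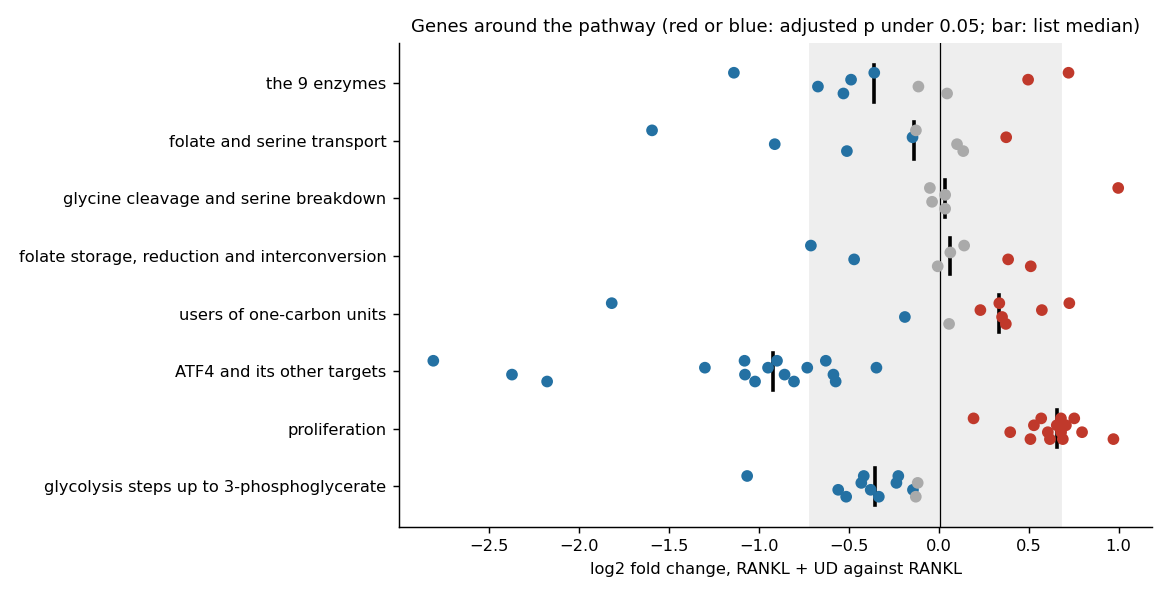
Log2 fold change of RANKL + UD against RANKL (horizontal axis) for each tested gene of the 9 enzymes and 7 related lists (rows); red and blue points passed upward and downward at an adjusted p under 0.05, grey points did not, black bars are list medians, and the shaded band holds the middle 90% of all tested genes. All 16 tested genes of the ATF4 list lie to the left of 0 and all 15 proliferation genes to the right, with list medians of −0.92 and 0.66.

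In the coordinates of the deposited table, Phgdh lies at chr3:98220486-98247306, Psat1 at chr19:15882042-15924701, Psph at chr5:129842622-129864513, Shmt1 at chr11:60678930-60702544 and Shmt2 at chr10:127352992-127358313, each on the minus strand. Mthfd1 lies at chr12:76302072-76366577 and Mthfd1l at chr10:3923118-4117081 on the plus strand, and Mthfd2 at chr6:83282673-83302890 and Aldh1l2 at chr10:83323314-83370004 on the minus strand. The submitters' processing notes name mm10, but 0 of the 9 positions equal those of the GRCm38 annotation, although all 9 have the same span, so the build of these coordinates is not settled and they are not to be joined with the promoter positions given above. Other genes that overlap a member had means of at most 0.550 FPKM. On the opposite strand these were Gm3329 at Psat1, ENSMUSG00002076148 at Shmt1, Ndufa4l2 at Shmt2, and Gm34868, Gm47526 and Gm47525 at Mthfd1. On the same strand they were Gm43890 at Mthfd2 and Gm25515 and Gm16074 at Mthfd1l.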

How the data were processed

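Reads came from poly(A)-selected, dUTP strand-specific libraries sequenced as 150 bp paired ends on an Illumina NovaSeq, per the labels and the methods. The deposited counts are raw reads per gene, and the authors computed FPKM from these counts, the exonic gene sizes and the library totals. The build mm10 is named in the submitters' processing notes, and the aligner, counting tool and annotation are not given in the sources used here. The table calls the RANKL libraries the model group.

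Counts were tested with edgeR 4.0.16 (quasi-likelihood, TMM) in R 4.3.3, with all 9 libraries in one fit, 3 contrasts and Benjamini-Hochberg adjustment over 11995 genes, and a call is an adjusted p under 0.05. P-values set the difference between groups against the spread between these libraries, and the labels do not say how the replicate cultures were kept apart. Promoters are from RefSeq. The procedure was tested on simulated data. DESeq2 1.42.0, limma 3.58.1 on log2(FPKM + 1), other scalings, no filter, left-out libraries, a replicate block and a 1.5-fold minimum were tried as alternatives.

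The members and lists were chosen with earlier results of these data known. Besides the members, the text names up to 3 genes of each list with the largest change between RANKL + UD and RANKL among those passing, the gene nearest each member in profile, Atf4, Ddit3, Myc, Tyms, Mki67, single cell type markers, and overlapping genes. Single results for some genes are not reported here. Marker lists are given as sums, counts and single means, without tests. Python 3.11.15, pandas 2.3.3, numpy 2.4.6 and matplotlib 3.10.9 prepared tables and figures.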

Additional observations from a re-analysis of the deposited data

How the results depend on the processing

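Of 459 alternative values of single members, 445 kept their direction and their side of the threshold, 3 passed it, 6 lost it and 5 turned sign, all 5 in differences that had not passed. For Mthfd1 between RANKL and control, the turned values were −0.046 with total counts, −0.045 with limma on log2(FPKM + 1) and −0.048 on log2(FPKM + 0.1). It also turned without RANKL replicate 3, at −0.021, in a range of −0.021 to 0.093 over the left-out libraries. Mthfd1l between RANKL + UD and control turned without control replicate 2, at −0.0028, in a range of −0.0028 to 0.10 over the left-out libraries. A fold change over 1.5 left 0 members higher and 0 lower for RANKL against control, 1 higher and 2 lower for RANKL + UD against RANKL, and 0 higher and 2 lower for RANKL + UD against control. With 1 library left out, the 2 members higher in RANKL + UD than in control became 1 to 2, the 1 without RANKL + UD replicate 3. With a replicate block, 5 members were lower and 2 higher for RANKL + UD against RANKL, as without it, and 2347 genes rose and 2518 fell in place of 2233 and 2418. Deviations of libraries with the same number correlated at −0.019 to 0.098, and those of libraries with different numbers at −0.10 to 0.046. These overlapping ranges do not settle whether the numbers mark pairs. The main fit took none, and the block is given as an alternative. With total counts, all-gene calls for RANKL + UD against RANKL were 3350 higher and 1707 lower. TMM factors were 0.959 to 0.962 in RANKL and 1.01 to 1.03 in the other libraries.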
